A study of Bos taurus with 90 samples.

Results

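The 5 miRNAs followed here stood out in bovine liver among 90 small RNA libraries: miR-122, miR-483, miR-874, miR-551b and miR-1247-3p, which are 5 of the 388 miRNAs listed in any tissue and 5 of the 330 listed in liver. They were chosen by their measured levels, which were higher in liver than in the other tissues or were listed in liver alone, so the comparison of liver with other tissues is a description and is given with no test. The libraries came from rumen epithelium, duodenum epithelium, jejunum epithelium, liver and mammary gland of 18 mid-lactation Chinese Holstein dairy cows, with 18 samples per tissue. Within each tissue 6 samples came from cows given rice straw, 6 from cows given corn stover and 6 from cows given alfalfa hay as forage, with no other agent or genotype named. The samples were pieces taken at slaughter, labelled as epithelium for rumen, duodenum and jejunum. Each value mixes all cell types of the piece, and fewer cells of a type and less RNA per cell cannot be told apart.

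miRNAs are short RNAs that guide Argonaute proteins to target mRNAs and lower their translation and stability. miR-122 is the classic hepatocyte miRNA, known for its part in cholesterol and lipid metabolism and made from its own transcript under liver transcription factors. miR-483 lies in an intron of IGF2, the gene of a fetal growth factor that adult liver still makes. miR-874 lies in KLHL3, a ubiquitin ligase adaptor. miR-551b lies in EGFEM1, and miR-1247 lies beside DIO3, the gene of an enzyme that inactivates thyroid hormone, in an imprinted domain. In the RefSeq gene table of the assembly ARS-UCD2.0 all 5 were matched, with MIR122 overlapping no other gene and MIR483, MIR874, MIR551B and MIR1247 overlapping IGF2, KLHL3, EGFEM1 and DIO3OS.

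All values are CPM, the reads of a miRNA scaled to the reads mapped to all annotated miRNAs in that sample (counts per 1000000). No length correction applies, and levels of different miRNAs are therefore read shares, not molecules. Mapped reads ranged from 937556 to 15621501 per sample and from 2004942 to 7684530 in liver, where 3 reads were worth 0.390 to 1.496 CPM. Mammary rice straw replicates 1, 4 and 5 and alfalfa hay replicate 1 stood apart as shallow libraries of 937556 to 2624975 reads, where 3 reads were worth up to 3.20 CPM. In each tissue the listed miRNAs all exceeded 1 CPM in 9 or more samples, and a miRNA not listed in a tissue has no value in it. miR-143 and miR-145, which mark smooth muscle, summed to 118233 to 243920 CPM in the labelled rumen epithelium. The same sum was 82274 to 177587 CPM in liver and 70758 to 228169 CPM in the mammary gland. How pure the labelled epithelium of the forestomach and gut was, was not tested.

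The 5 miRNAs differed widely in level and in how far they were restricted to liver. miR-122 was the only one that was both abundant in liver and either scarce or not listed in each other tissue. Rumen, duodenum and jejunum list no value for miR-122, which is not a measured absence. Its lowest liver value was 8671 CPM, its median 11038 CPM and its highest 12721 CPM, from 25504 to 88215 reads. It averaged 11021 ± 1144 CPM (SD, n = 18), which made it the 15th most abundant miRNA in liver, next to let-7a-5p at 11387 ± 1185 CPM and miR-30d at 10903 ± 989 CPM. These neighbours in the order differed from it by less than 1 SD. Together the 5 miRNAs took 1.12 ± 0.114% of liver miRNA reads, nearly all of it miR-122.

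miR-122 was listed in 1 other tissue, the mammary gland, at a mean of 7.88 ± 14.4 CPM (SD, n = 18) and a median of 1.004 CPM. The liver mean was 1399 times the mammary mean, and the lowest liver sample was 179 times the highest mammary sample. miR-122 had the highest such ratio of all 330 liver miRNAs. It also varied little between livers, with a coefficient of variation of 10.4%, the 9th lowest of the 221 miRNAs with a liver mean of at least 10 CPM, whose median was 25.1%. Counting error alone would give 0.480%. Low spread was not particular to miR-122 among miRNAs of like level. let-7a-5p, miR-30d (SD 989 CPM) and miR-186 (8306 ± 581 CPM) varied about as little or less. miR-92a (15199 ± 2954 CPM), miR-21-5p (13804 ± 2763 CPM) and miR-191 (8107 ± 1819 CPM) varied more (SD, n = 18 each).

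miR-483 was scarce but clearly higher in liver. Its liver values ran from 7.35 CPM through a median of 12.3 CPM to 21.3 CPM, or 27 to 119 reads. In rumen its mean was 1.07 ± 0.570 CPM and in the mammary gland 1.01 ± 0.673 CPM (SD, n = 18 each), and in either tissue 9 samples exceeded 1 CPM. These low levels did not differ by more than their spread. The liver mean was 11.9 times the rumen mean, and the lowest liver value was 2.66 times the highest value in rumen or the mammary gland. Duodenum and jejunum list no value for miR-483. It was chosen for its liver level, so this separation is a description only.

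miR-874 was present in every sample of all 5 tissues, which goes against calling it restricted to liver. It was enriched there: liver values ran from 112 CPM through a median of 170 CPM to 248 CPM. The other tissues followed with means of 26.4 ± 6.26 CPM in jejunum, 23.4 ± 12.1 CPM in rumen, 20.9 ± 3.82 CPM in duodenum and 15.5 ± 8.29 CPM in the mammary gland (SD, n = 18 each). Each of these neighbours differed by less than the larger SD of the pair. The liver mean was 6.67 times the jejunum mean, and the lowest liver sample was 2.44 times the highest sample of any other tissue, a rumen sample at 46.0 CPM.

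miR-551b and miR-1247-3p were listed in liver alone, but at the edge of detection. miR-551b ran from 0.383 CPM through 1.34 CPM to 3.99 CPM, which is 1 to 14 reads per sample, with 13 of 18 samples above 1 CPM. miR-1247-3p ran from 0.210 CPM through 1.14 CPM to 9.95 CPM, or 1 to 47 reads, with 10 of 18 samples above 1 CPM. Both belong to 11 miRNAs listed in liver and nowhere else, 9 of which averaged under 3 CPM, so being listed in liver alone rested mostly on values near the counting limit. With an unlisted tissue set to 1 CPM, the liver mean of miR-551b was 1.54 times and that of miR-1247-3p 1.85 times that value. The depth here cannot show whether they are absent elsewhere.

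The opposite arm of the same precursor, miR-1247-5p, was listed in rumen at 6.21 ± 3.92 CPM, in the mammary gland at 2.93 ± 2.49 CPM and in duodenum at 1.70 ± 1.37 CPM, beside 8.96 ± 10.7 CPM in liver (SD, n = 18 each). The precursor was thus read in 4 of the 5 tissues, and its liver and rumen levels differed by less than the liver SD. Across the liver samples 700 reads came from the 5p arm and 148 from the 3p arm, and 5p exceeded 3p in 18 of 18 samples. The ratio of the arms ran from 1.5 through a median of 3.98 to 47.3. The highest 3p value, 9.95 CPM in alfalfa hay replicate 3, came with 30.1 CPM of 5p, while the highest 5p value, 43.7 CPM in alfalfa hay replicate 1, came with 0.925 CPM of 3p.

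**Figure D1:**
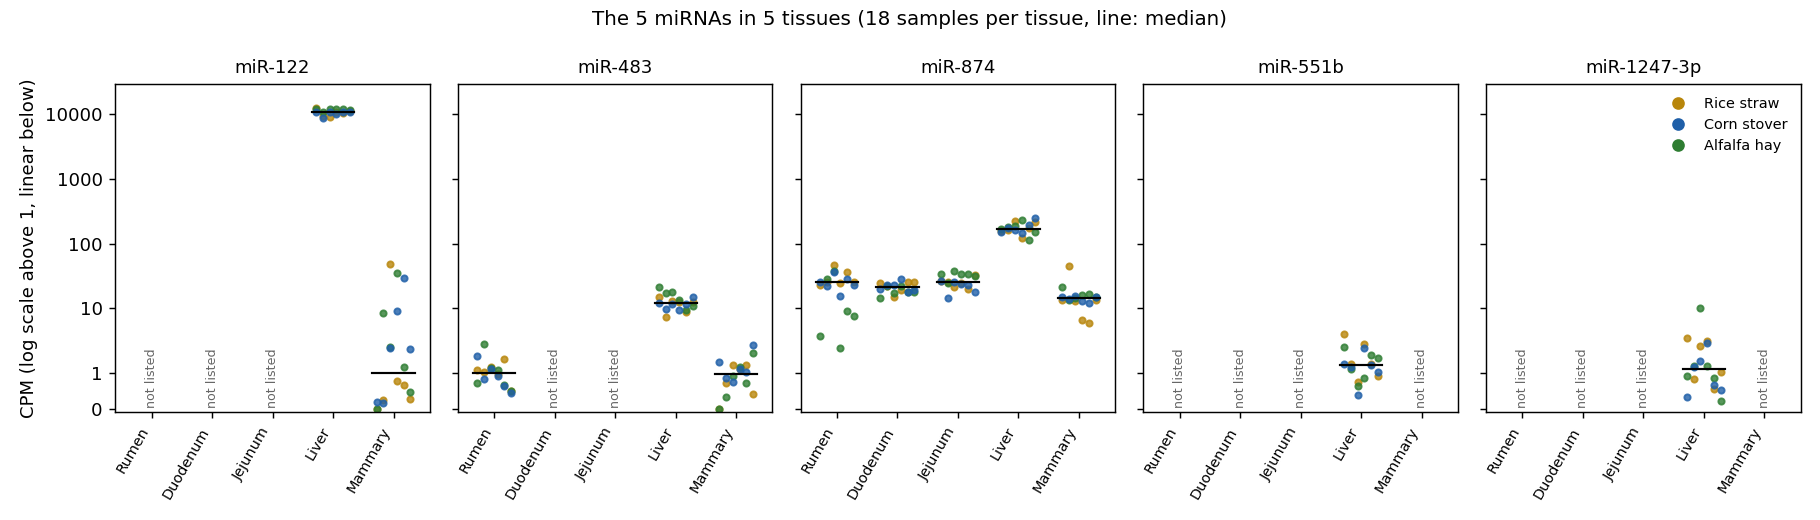
Level of each of the 5 miRNAs (CPM, log scale above 1 and linear below) in the 18 samples of each tissue, coloured by forage, with the median as a line and tissues without a listed value marked. miR-122 sits above 8671 CPM in every liver sample and at or below 48.5 CPM in the mammary gland, while miR-874 is present in all 5 tissues.

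The 5 were chosen for their liver levels, so setting them beside other miRNAs known to be abundant or studied in liver is a description. Of a list of 20 such miRNAs, 19 were listed in liver, and 4 of them had their highest mean there: miR-101 at 3.32 times and miR-22-3p at 3.26 times the next tissue, and miR-885 and miR-29a at 1.28 times. The median ratio over the 19 was 0.844. miR-192, which is abundant in liver, was still higher in duodenum. Outside the 5, the next highest ratios belonged to miR-2483-5p at 32.3, miR-2483-3p at 29.2 and miR-2415-3p at 8.40, the last 2 against unlisted tissues set to 1 CPM.

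The trace of miR-122 in the mammary gland was concentrated in a few samples. Of 18 mammary samples, 5 were above 8 CPM and 9 above 1 CPM, and 3 samples held 84.9% of all 1233 mammary reads of miR-122. Rice straw replicate 3 had 48.5 CPM from 406 reads, alfalfa hay replicate 4 had 34.8 CPM from 499 reads and corn stover replicate 5 had 29.7 CPM from 142 reads. Each forage thus had 1 high sample. Without these 3 the mean of the other samples was 1.92 CPM.

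The other mammary samples were lower. Corn stover replicate 4 had 9.05 CPM from 40 reads and alfalfa hay replicate 2 had 8.49 CPM from 75 reads, while 8 samples had fewer than 3 reads, among them the 4 shallow libraries. Rice straw replicate 1 and alfalfa hay replicate 1 had 0 reads, which in their shallow libraries allows up to 1.60 and 3.20 CPM, counting error only. The highest mammary value was 0.440% of the liver mean.

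Other miRNAs found in liver are given for the same 3 mammary samples, in the order rice straw replicate 3, alfalfa hay replicate 4 and corn stover replicate 5. miR-192 was at 2312, 3177 and 2224 CPM, against 1839 to 3210 CPM over all 18 mammary samples and a median of 2503 CPM. Every mammary sample, including those with no read of miR-122, thus held miR-192. miR-194 was at 131, 151 and 223 CPM against 43.9 to 234 CPM, and miR-885 at 120, 69.2 and 77.6 CPM against 14.9 to 157 CPM. miR-22-3p was at 26059, 27791 and 45864 CPM against a median of 26192 CPM and a lowest value of 3438 CPM, and corn stover replicate 5 had the highest value of the 18. miR-483 was at 1.32, 1.26 and 1.05 CPM, within the mammary range of 0 to 2.74 CPM. A share of 0.440% of the liver level, the highest that miR-122 reached, would be smaller than the mammary range of each of these miRNAs. Their values therefore cannot decide the source of the mammary reads of miR-122, which was not tested.

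**Figure D2:**
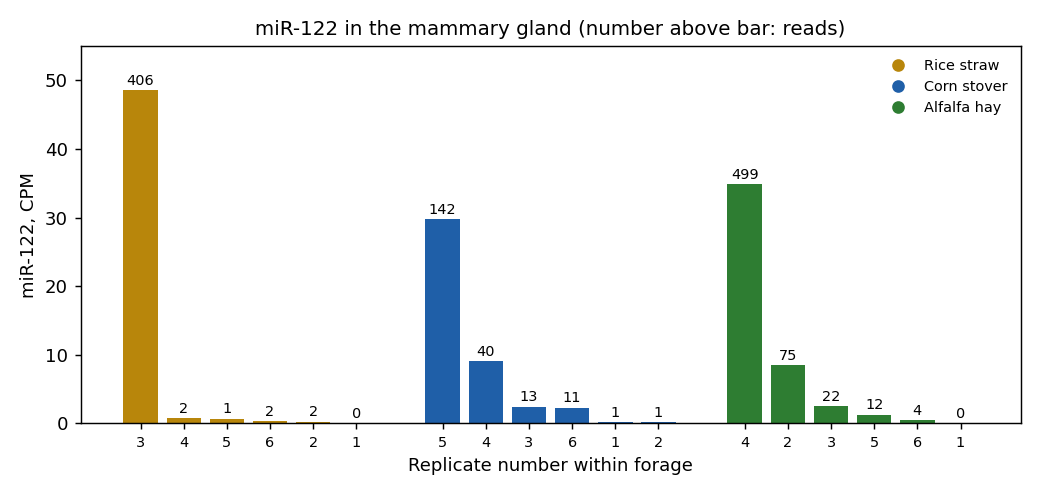
miR-122 in the 18 mammary gland samples (CPM, linear axis from 0), grouped by forage and ordered by level within it, with the number of reads above each bar. A single sample leads in each forage, at 48.5, 29.7 and 34.8 CPM.

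Forage was compared within liver by an F test over the 3 diets (limma on log2(CPM + 1), 18 samples, Benjamini-Hochberg adjustment over 326 miRNAs), a measure that did not choose the miRNAs. The test called 0 of 326 miRNAs, a background of 0%, with 17 at an unadjusted p under 0.05. edgeR on the recovered reads also called 0, with 24 at an unadjusted p under 0.05. None of the 5 passed in either tool. Of the 19 other liver miRNAs 0 passed, the lowest adjusted p being 0.853. The count over all miRNAs rested on single samples to a small degree, since 3 were called without rice straw replicate 6 and 1 without alfalfa hay replicate 2, none of them among the 5.

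miR-122 in liver was at 9230, 10609 and 12721 CPM (lowest, median, highest of 6) on rice straw, at 8671, 10872 and 11091 CPM on corn stover and at 11014, 12139 and 12340 CPM on alfalfa hay. Of the 6 alfalfa samples 5 lay above every corn sample, but the groups overlapped through alfalfa hay replicate 2. The log2 difference of corn stover from alfalfa hay was -0.20 (SE 0.09, 95% interval -0.39 to -0.01) and that of rice straw from alfalfa hay was -0.17 (SE 0.09, -0.36 to 0.02). The F test gave an adjusted p of 0.853, so no forage difference was detected. White blood cell markers (miR-223, miR-142-5p and miR-150, all 3 listed, none called) also had their highest median on alfalfa hay, with summed levels of 5281 to 9947 CPM against 5006 to 7217 CPM on rice straw and 3714 to 6357 CPM on corn stover. That sum was mostly miR-142-5p, which averaged 5654 CPM over the 18 livers. The part of these markers in the miR-122 values was not tested.

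The other liver miRNAs overlapped broadly between forages. miR-483 was at 7.35, 12.6 and 14.96 CPM (lowest, median, highest of 6) on rice straw, at 9.49, 11.7 and 15.1 CPM on corn stover and at 9.37, 15.3 and 21.3 CPM on alfalfa hay, with an adjusted p of 0.896 by limma. miR-874 had medians of 167, 170 and 175 CPM on rice straw, corn stover and alfalfa hay, and an adjusted p of 0.986 by limma. Its log2 difference of rice straw from alfalfa hay was 0.03, with a 95% interval of -0.36 to 0.43.

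For the 2 scarce miRNAs the intervals were wide. miR-551b had medians of 1.36, 1.28 and 1.41 CPM on rice straw, corn stover and alfalfa hay, and the log2 difference of rice straw from alfalfa hay was 0.16 with a 95% interval of -0.41 to 0.73. miR-1247-3p had medians of 1.81, 0.948 and 1.10 CPM, and the interval for corn stover against alfalfa hay was -1.18 to 0.60. Both had an adjusted p of 0.922 by limma, and a change within those intervals is not excluded. Over the 18 livers the coefficient of variation of miR-551b was 58.6%, where counting error alone would give 40.7%. For miR-1247-3p it was 121.6%, where counting error alone would give 37.1%, so its spread was mostly beyond counting error.

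**Figure D3:**
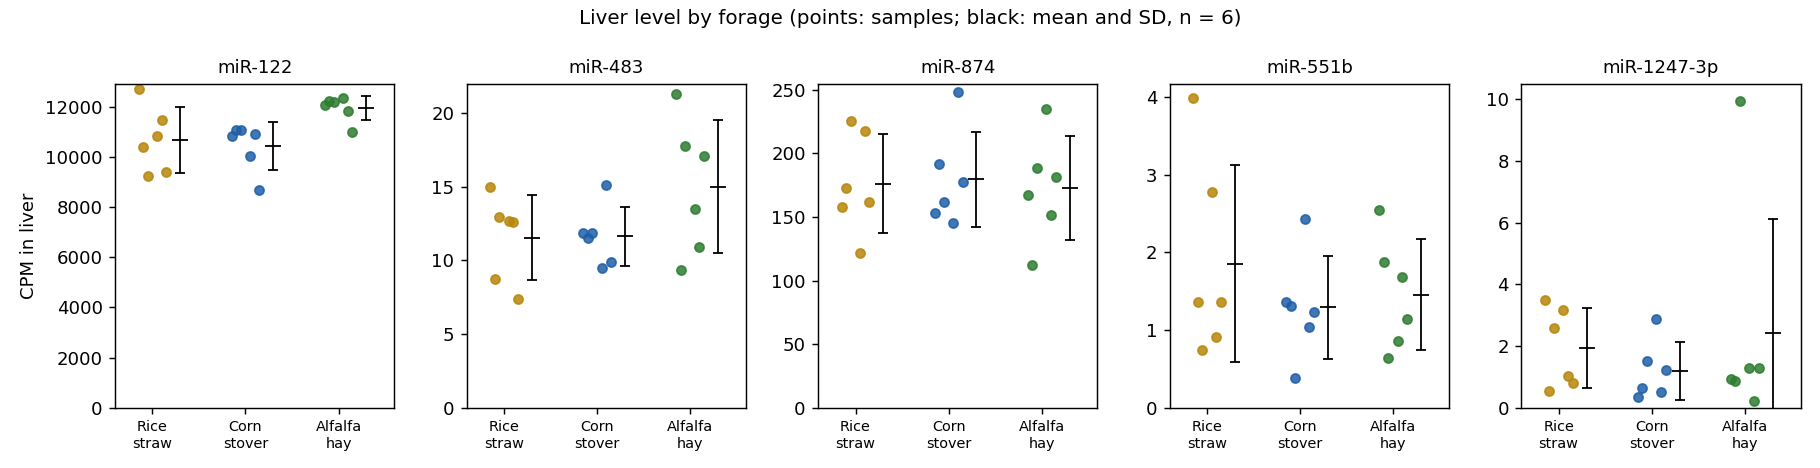
Liver level of each miRNA (CPM, linear axes from 0) by forage, with each sample as a point and the mean with its SD in black (n = 6 per forage). The forages overlap in all 5 panels, and alfalfa hay replicate 3 stands alone for miR-1247-3p at 9.95 CPM.

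miR-874 was the one of the 5 that could be tested for forage in every tissue, and its pattern differed between them. In jejunum it was at 24.6, 33.6 and 37.6 CPM (lowest, median, highest of 6) on alfalfa hay, at 19.8, 24.8 and 32.9 CPM on rice straw and at 14.3, 23.3 and 26.8 CPM on corn stover. Of the 6 alfalfa samples 5 lay above every corn sample and above every rice sample but replicate 6. The F test called it, with an adjusted p of 0.0413 by limma, in a tissue where 23.8% of miRNAs were called (80 of 336), so miR-874 was one of many.

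In jejunum both other forages lay below alfalfa hay, and only the contrast with corn stover passed the threshold. miR-874 was lower on corn stover by a log2 difference of -0.56 (SE 0.17, limma adjusted p 0.0171), a direction in which 14% of miRNAs were called. The median of all miRNAs shifted by -0.17 in the same contrast, so relative to it the difference was -0.39. Rice straw differed from alfalfa hay by -0.37 (SE 0.17, limma adjusted p 0.726), in a contrast where 0 of 336 miRNAs were called in either direction. The F test call was lost under upper-quartile scaling (adjusted p 0.0621) and under trimmed-mean scaling (0.125), which removes the shift, while the difference relative to the median stayed at -0.39 and -0.38. It was also lost in 10 of the 18 fits that left out 1 sample, with adjusted p from 0.0227 to 0.0829. The contrast of corn stover with alfalfa hay was lost under trimmed-mean scaling (-0.38, limma adjusted p 0.0933) and without corn stover replicate 2 (-0.45, limma adjusted p 0.0503).

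Jejunum corn stover replicates 1, 2 and 6 stood apart from the other jejunum samples. miR-31, the stratified epithelium marker listed in jejunum, was at 8.13 to 37.7 CPM in them and at 183 to 478 CPM in the other 15 jejunum samples, and miR-874 was at 26.8, 14.3 and 17.99 CPM in replicates 1, 2 and 6. Without these 3 samples, a choice made after the values were seen, the F test of miR-874 gave an adjusted p of 0.168 by limma, and corn stover differed from alfalfa hay by -0.40 (limma adjusted p 0.182). The jejunum call was therefore lost without them, in a fit with 3 corn stover samples in place of 6.

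In rumen alfalfa hay had the lowest median instead. miR-874 was at 22.5, 25.6 and 46.0 CPM (lowest, median, highest of 6) on rice straw and at 15.4, 24.2 and 36.4 CPM on corn stover. On alfalfa hay it was at 3.77, 28.4, 37.6, 2.44, 9.19 and 7.70 CPM in replicates 1 to 6. Of these, 4 thus lay below every sample of the other forages, and replicates 2 and 3 lay among them. The log2 difference of rice straw from alfalfa hay was 1.48 (SE 0.46) and that of corn stover 1.21 (SE 0.46).

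The rumen F test gave an adjusted p of 0.141 by limma and 0.370 by edgeR, against a background of 1.49% called (5 of 335), so miR-874 was not called in rumen. Without alfalfa hay replicate 2 or replicate 3 it was called, at limma adjusted p of 0.0267 and 0.0199. Those fits called 27 of 336 and 22 of 335 miRNAs, so calls rose over all miRNAs and not for miR-874 alone. In duodenum miR-874 had medians of 23.4, 21.6 and 17.8 CPM on rice straw, corn stover and alfalfa hay and an adjusted p of 0.694, where limma called 0% (0 of 336, with 36 at an unadjusted p under 0.05, and 0 with edgeR). In the mammary gland its medians were 13.1, 14.4 and 15.5 CPM and the adjusted p 0.806, where 3.72% were called by limma.

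The difference between the tissues was itself tested, after the values were seen. Alfalfa hay against the mean of the other forages was -1.35 in rumen and 0.47 in jejunum on the log2 scale, a difference of 1.81 (SE 0.43) with an adjusted p of 0.0197 by limma over 313 miRNAs, of which 2.24% were called. With the replicate number taken as the cow and used as a block, the adjusted p was 0.0150. Under trimmed-mean scaling it was 1.61 with an adjusted p of 0.0601, and the call was also lost without rumen alfalfa hay replicate 4 (difference 1.48, adjusted p 0.0634) or replicate 5 (1.79, 0.0536). Without the 3 jejunum corn stover samples that stood apart it was 1.73 with an adjusted p of 0.0534. The other tissues differed from rumen in the same direction as jejunum. These log2 differences were 1.295 (SE 0.443) in liver, 1.120 (SE 0.431) in duodenum and 1.588 (SE 0.509) in the mammary gland. None of them passed the threshold, with limma adjusted p of 0.101, 0.133 and 0.209. Liver differed from jejunum by -0.519 (SE 0.215, limma adjusted p 0.244).

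**Figure D4:**
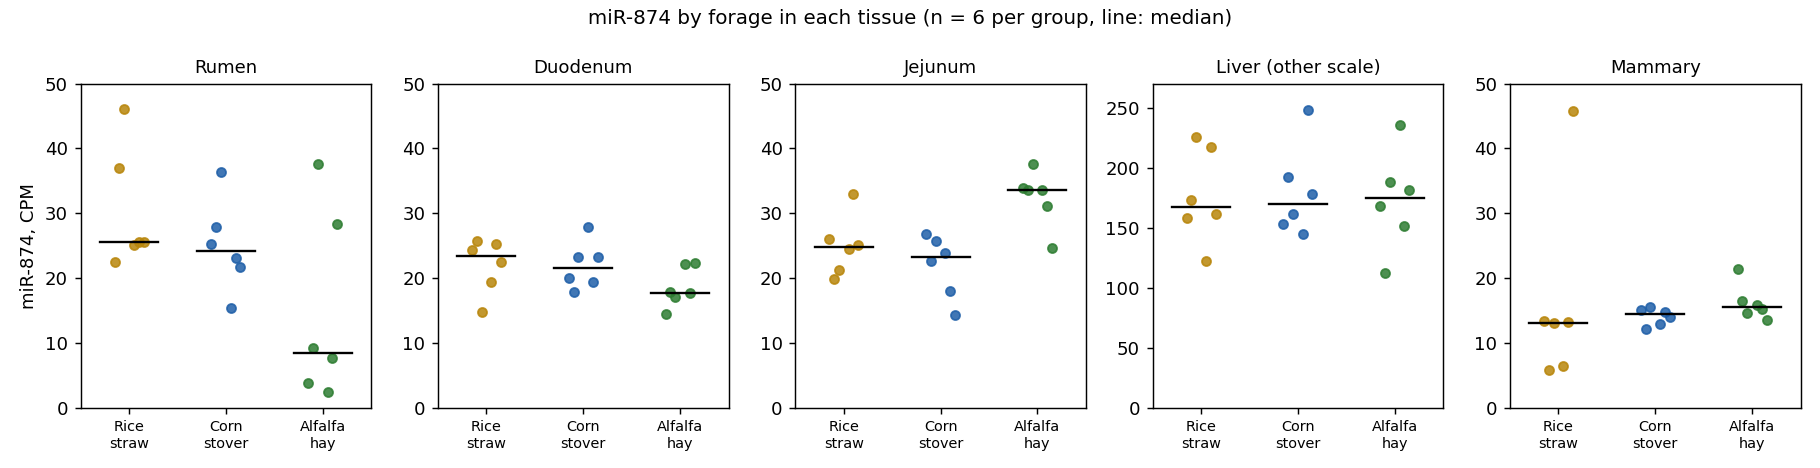
miR-874 by forage in each tissue (CPM, linear axes from 0, liver on its own scale), with samples as points and medians as lines (n = 6 per group). Alfalfa hay has the highest median in jejunum, at 33.6 CPM, and the lowest in rumen, at 8.44 CPM.

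The level of miR-874 was correlated with that of the endothelial miRNA miR-126 in rumen and jejunum. How many of all miRNAs have such a relation is not given here, so it is not shown to be particular to miR-874. Over 72 relations of a miRNA with a summed marker list, computed after the values were seen, 2 passed a Benjamini-Hochberg adjusted p of 0.05, and both were miR-874 against miR-126-3p plus miR-126-5p. In rumen Pearson's r was 0.787 (permutation p 0.000140, adjusted 0.0101) and Spearman's rho 0.802 (permutation p 0.000130, adjusted 0.00936) over 18 samples. Pearson's r was 0.567 without the 2 samples farthest from the median of miR-126 (permutation p 0.01999), and 0.813 with values centred on forage means. Other lists also had sizeable r with miR-874 in rumen, none past the adjusted threshold. These were -0.662 for the miR-200 family, -0.580 for stratified epithelium and 0.582 for white blood cells (permutation, adjusted p 0.0762, 0.0948 and 0.104).

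In jejunum the same relation had r = 0.734 (permutation p 0.000540, adjusted 0.0194) and rho = 0.581 (permutation p 0.0128, adjusted 0.172). There it was 0.429 without the 2 farthest samples (permutation p 0.0973), so it rested partly on those samples. Without the 3 corn stover samples that stood apart r was 0.509 over 15 samples (permutation p 0.0547). In liver, duodenum and the mammary gland r was 0.577, 0.535 and 0.665, none past the adjusted threshold (permutation, adjusted p 0.0948, 0.127 and 0.0762). Both values of each point come from the same library and share its depth and scaling.

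The miR-126 markers also differed by forage in jejunum. Both were called there by the limma F test, and their sum ran from 8000 to 17708 CPM on corn stover, from 18498 to 28030 CPM on alfalfa hay and from 19516 to 29441 CPM on rice straw. Corn stover replicates 1, 2 and 6 had the lowest sums, and the other corn stover samples, from 14560 CPM up, were still below every alfalfa hay and rice straw sample. Of the smooth muscle markers 1 of 2 was called in jejunum, miR-145 (limma adjusted p 0.00422). The sum with miR-143, which was not called, ran from 184453 to 296908 CPM on corn stover. It ran from 147053 to 246794 CPM on alfalfa hay and from 151920 to 237701 CPM on rice straw. In liver miR-143 averaged 126623 CPM against a median sum of 124814 CPM, so there the sum was nearly all miR-143. The level of miR-145 alone in jejunum is not given here, and the sum does not show its change. In rumen neither miR-126 arm was called, and the sums ran from 16774 to 35939 CPM on alfalfa hay, from 26195 to 38033 CPM on rice straw and from 20300 to 39440 CPM on corn stover. Epithelial markers of the miR-200 family, all 4 listed and none called in rumen, summed there to 15351 to 33848 CPM on alfalfa hay, 10698 to 17079 CPM on rice straw and 12875 to 18164 CPM on corn stover. The part of cell mixture in the miR-874 values was not tested.

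Within liver the 5 miRNAs did not form a single group. Of 10 pairs, Pearson's r on log2(CPM + 1) passed the adjusted threshold in 0. The highest was miR-122 with miR-483, r = 0.522 (permutation p 0.0260, adjusted 0.130) and rho = 0.437 (permutation p 0.0719, adjusted 0.240) over 18 samples. It was 0.606 without the 2 samples farthest from the median of miR-122, 0.374 with values centred on forage means, and 0.606, 0.636 and -0.225 within rice straw, corn stover and alfalfa hay (n = 6 each). The sign was negative within alfalfa hay.

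The lowest was miR-874 with miR-551b, r = -0.577 (permutation p 0.0115, adjusted 0.115). Its rho of -0.721 did pass over the 10 pairs (permutation p 0.00121, adjusted 0.0121), but not with values centred on forage means (rho -0.604, permutation, adjusted p 0.0902) or under upper-quartile scaling (rho -0.531, permutation, adjusted p 0.2503). Without the 2 samples farthest from the median of miR-874 r was -0.612, with centred values -0.588, and within rice straw, corn stover and alfalfa hay -0.774, -0.275 and -0.624. miR-551b rests on 1 to 14 reads per sample, and counting error alone gives a coefficient of variation of 40.7% of the 58.6% measured. The other 8 pairs had r between -0.101 and 0.347.

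No relation to sequencing depth was detected. Against the total of mapped reads the 5 miRNAs had r between -0.200 and 0.131 over the 18 liver samples, with a lowest adjusted p of 0.890 by permutation over 5 relations. The arms of miR-1247 had r = 0.521 (permutation p 0.0338) and rho = 0.598 (permutation p 0.00968), and r fell to 0.182 without the 2 samples farthest from the median of the 3p arm, so that relation rested on those samples.

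The miRNAs most like each of the 5 across the 18 livers are given as a description. The 3 with the highest r to miR-122 were miR-142-5p at 0.607, miR-142-3p at 0.551 and miR-484 at 0.547, of 220 miRNAs with a mean of at least 10 CPM. The 2 arms of miR-142, a miRNA of blood-forming cells whose 5p arm is in the white blood cell list, led that order. miR-483 was most like miR-484 at 0.735, miR-186 at 0.712 and miR-1249 at 0.694.

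miR-874 was most like miR-151-5p at 0.731, miR-361 at 0.697 and miR-125a at 0.654. miR-551b was most like miR-2336 at 0.568, miR-490 at 0.553 and miR-103 at 0.546, and miR-1247-3p was most like miR-1388-3p at 0.517. At the other end, the lowest r to miR-122 were those of miR-369-3p at -0.626, miR-410 at -0.601 and miR-136 at -0.595, which all belong to the imprinted DLK1-DIO3 miRNA cluster.

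The white blood cell list had the highest r of any marker list with both miR-122 and miR-483 in liver. In liver miR-142-5p averaged 5654 CPM, against a median of 5872 CPM for the sum of the 3 markers. The list there therefore mostly repeats miR-142-5p, whose r with miR-122 is given above, and does not stand for 3 separate markers. For miR-483 r was 0.668 (permutation p 0.00249, adjusted 0.0598) and rho 0.678 (permutation p 0.00258, adjusted 0.0929), with 0.686 without the 2 farthest samples and 0.612 with centred values. For miR-122 r was 0.616 (permutation p 0.00667, adjusted 0.0762) and rho 0.577 (permutation p 0.0143, adjusted 0.172), with 0.468 with centred values. The smooth muscle list had negative r in liver, -0.552 with miR-122 (permutation p 0.0174, adjusted 0.114) and -0.557 with centred values. With miR-483 and miR-551b it was -0.449 and -0.506 (permutation, adjusted p 0.233 and 0.156). None of these relations passed over the 72, and the same libraries supply both values.

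**Figure D5:**
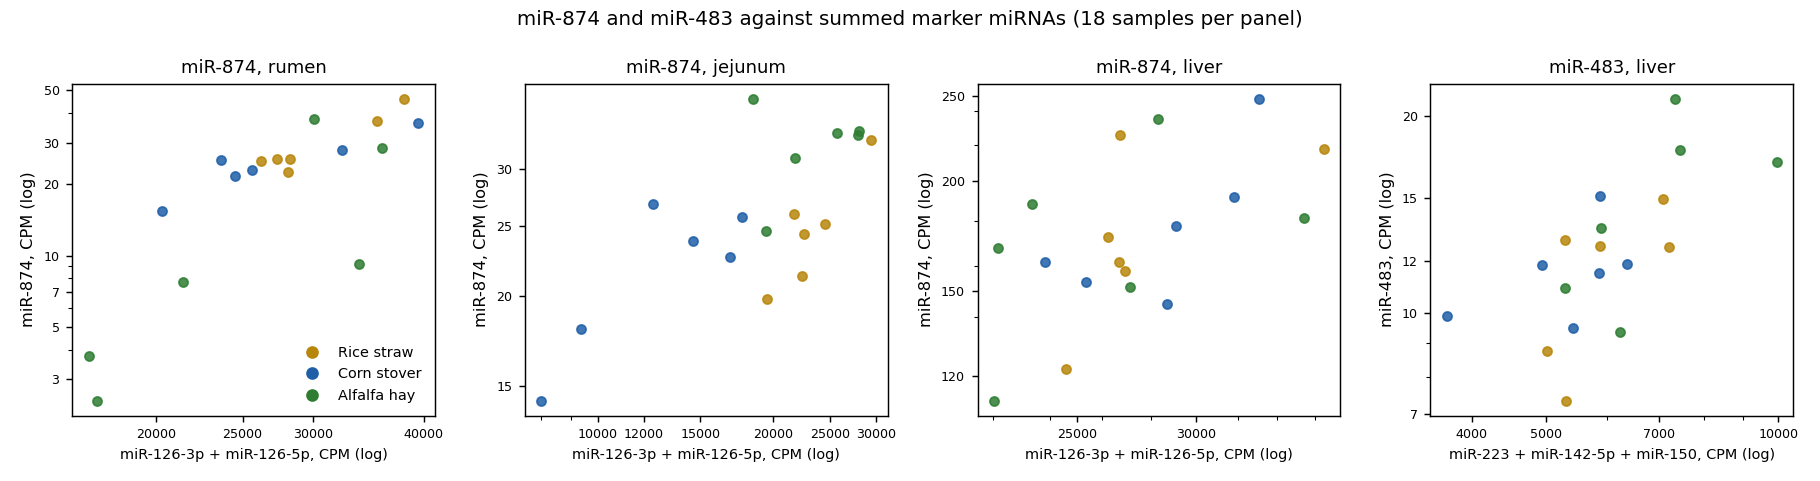
miR-874 against the sum of both miR-126 arms in rumen, jejunum and liver, and miR-483 against the sum of 3 white blood cell miRNAs in liver (CPM on log axes, 18 samples per panel, coloured by forage). For miR-874 r was 0.787 in rumen and 0.734 in jejunum, both past the adjusted threshold, and 0.577 in liver, which was not.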

How the data were processed

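Small RNA was sequenced from 90 samples, 18 each of 5 tissues, and groups, forages and replicate numbers were taken from the sample labels. Per the paper's methods, the authors filtered reads with CASAVA 1.8, aligned reads of 15 nt or longer to bovine precursors of miRBase 22 with sRNAbench (seed 20, up to 2 mismatches and 10 mappings), and divided by the reads mapped to all annotated miRNAs. The deposited values were therefore CPM, although the paper calls them raw counts, and the miRNAs listed in a tissue's files all exceeded 1 CPM in 9 or more of its samples. Reads of near-identical miRNAs, such as miR-103 and miR-107, can be shared between them. The genome build is not given in the sources used here.

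All 30114 values were whole multiples of 1 read (tolerance 0.1 read), which gave the mapped totals. Counting limits were taken at 3 reads, cover counting error only, and rest on reads without molecular identifiers. Forages were compared within each tissue with limma 3.58.1 in R 4.3.3 (lmFit, eBayes with trend) on log2(CPM + 1), so fold changes of low miRNAs are understated, for miRNAs above 1 CPM in more than 50% of the samples, with Benjamini-Hochberg adjustment at 0.05. miR-122 in the mammary gland and miR-483 in rumen and the mammary gland did not pass that filter. edgeR 4.0.16 (quasi-likelihood) was run on the recovered reads. The fits were tested on simulated data.

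Correlations over samples used 100000 permutations, two-sided (numpy 2.4.6, scipy 1.17.1, pandas 2.3.3, matplotlib 3.10.9, Python 3.11.15). Cows are the replicates, 6 per forage and tissue. Replicate numbers were not taken to pair the forages, since in no tissue did all 18 same-number pairs have a correlation of deviations over 0.1. Such pairs numbered 11 for rumen, 7 for the mammary gland, 6 for duodenum, 5 for liver and 2 for jejunum. The mean r in rumen was 0.126 against -0.0259 for other pairs. It was 0.0774 against -0.0155 in duodenum, 0.0631 against -0.0115 in the mammary gland, 0.0204 against -0.00309 in liver and -0.0401 against 0.00771 in jejunum. A rule that all pairs must pass is strict and cannot show that pairing is absent. The text names the 5 miRNAs, a list of liver miRNAs, marker lists, and for each of the 5 the 3 most alike among miRNAs with a liver mean of at least 10 CPM. The members and lists were chosen with earlier results of these data known. The tests between tissues, the pairwise contrasts outside liver, the marker relations, the miR-1247 arms, the lowest correlations and the fits without 3 jejunum corn stover samples were added after the values were seen. Alternatives covered pseudocounts, filters, scaling, the tool, a replicate block and each sample left out. Mature sequences were not used here.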

Additional observations from a re-analysis of the deposited data

Results flagged for a closer look

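Within the 36 groups of 6 samples looked at, 7 had a highest or lowest sample separated from its nearest neighbour by a larger share of the range than Dixon's 95% critical value, where chance gives about 5% of groups. Of these, 3 were the mammary samples that led in miR-122 within each forage, rice straw replicate 3 at 48.5 CPM, alfalfa hay replicate 4 at 34.8 CPM and corn stover replicate 5 at 29.7 CPM. In liver, alfalfa hay replicate 3 had 9.95 CPM of miR-1247-3p against 1.29 CPM in the next sample. miR-874 was at 45.8 CPM in mammary rice straw replicate 2 against 13.3 CPM in the next sample. miR-483 was at 2.77 CPM in rumen alfalfa hay replicate 2 and at 2.74 CPM in mammary corn stover replicate 6, from 11 and 13 reads.

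The response of miR-874 to alfalfa hay differed between jejunum and rumen by a log2 difference of 1.81 (SE 0.43, limma adjusted p 0.0197), from 0.47 in jejunum and -1.35 in rumen. It lay between 1.48 and 2.18 with each of 36 samples left out in turn, and its adjusted p between 0.000515 and 0.0634, past 0.05 in 2 of them.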

How the results depend on the processing

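The liver F test called 0 miRNAs under both pseudocounts, both filters, both scalings, edgeR and the replicate block, and 0 to 3 with each sample left out. For the 5 miRNAs in liver 0 of 128 alternative fits passed 0.05, the lowest adjusted p being 0.420. The jejunum F test of miR-874 was lost under upper-quartile scaling (adjusted p 0.0621), trimmed-mean scaling (0.125) and the replicate block (0.0556), and ran from 0.0227 to 0.0829 with each sample left out. The difference of its alfalfa response between jejunum and rumen was 1.61 under trimmed-mean scaling, no longer past the threshold, and ran from 1.48 to 2.18 with each sample left out. Without the 3 jejunum corn stover samples that stood apart, the F test gave an adjusted p of 0.168 and the difference was 1.73, neither past the threshold. The replicate block brought rice straw against alfalfa hay in rumen to an adjusted p of 0.0313. The numbers were not taken as pairs, and rumen, with 11 of 18 same-number pairs over a correlation of 0.1, came nearest to pairing.

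Weak liver correlations changed sign, none past the threshold: miR-122 with miR-874 to 0.0838 without the 2 farthest samples, miR-483 with miR-551b to -0.0297 with a pseudocount of 0.1 CPM and -0.205 without the 2 farthest samples, and miR-551b with miR-1247-3p to -0.0168 with centred values, -0.0320 with the smaller pseudocount and -0.164 without the 2 farthest samples. Against depth, centred values turned miR-122 to -0.354, miR-483 to -0.0723 and miR-1247-3p to -0.0670. Medians in place of means raised the ratio of liver to mammary miR-122 from 1399 to 10996, since the mammary mean rests on few samples. Counting error in liver was largest for miR-551b and miR-1247-3p among the miRNAs followed here, at a median of 5 and 4.5 reads per sample.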
